A study of Equus caballus with 24 samples.

Results

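The comparison described here is that of the “Clinical Phase” with the “Remission Phase” in healthy horses, read across all genes of IgE-binding monocytes. Its members were chosen by their labels, as every library of a healthy horse, which gave 10 of the 24 libraries of the series, 5 from each phase. They come from 5 of the 12 horses, with the codes H1, H2, H4, H6 and H7, and each horse gave 1 library per phase, so that the phases were compared within horses. The other 14 libraries, from 7 allergic horses sampled in the same phases, were used only to set the change in healthy horses beside that of a separate group of animals.

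The study asked how IgE-binding monocytes differ between horses with and without a midge-driven skin allergy, in and out of the season of exposure. The healthy horses were adult Icelandic mares without clinical allergy. All were kept outdoors in one herd, on grass in summer and hay in winter, with yearly vaccination and a treatment against worms in December. The cells were sorted from blood by magnetic beads for CD14 and then by flow cytometry as CD14low, IgE+, MHCIIhigh, CD16- and CD163- cells. “Remission Phase” samples were taken in winter, without exposure to midges, and “Clinical Phase” samples in late summer, with it. In a healthy horse the phase is therefore a season with its exposure, feed and handling date. The time since the treatment against worms also follows the phase, and these cannot be told apart. No label gives a sequencing date or batch, so neither can a batch that follows the phase. In the study's quality control of healthy horses, RNA integrity was lower in some “Clinical Phase” samples than in any “Remission Phase” sample. RNA concentration was lower in most healthy horses in the “Clinical Phase”. The part of RNA quality in the results was not tested.

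Monocytes are short-lived white blood cells that leave the bone marrow, circulate and enter tissues. A subset of them in horses carries IgE on its surface through the high-affinity IgE receptor, so that these cells hold the antibody that recognizes allergens. Because blood cells are renewed continually, samples taken in different seasons from the same animal hold different cells.

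Reads counted on genes ranged from 21807434 to 36783634 per library in the “Remission Phase”, with a median of 30677562, and from 14493071 to 22921183 in the “Clinical Phase”, with a median of 16509039. The total was lower in the “Clinical Phase” in 4 of 5 horses (two-sided exact permutation test within horses, p = 0.125), and horse H2 alone had the higher total then. The fewest of the 32 exchanges of phase within 5 horses that can give a difference as large are 2, so no p under 0.05 is possible in this test. Depth therefore moved with phase, and its part in the results was examined by thinning all libraries to the lowest total.

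The number of genes with at least 1 count was 13537 ± 349 (SD, n = 5) in the “Remission Phase” and 13319 ± 280 (SD, n = 5) in the “Clinical Phase”, an exact permutation p of 0.375. With every library thinned to the same expected total, the mean difference was 4.8 genes in the other direction, and 3 of 5 horses still had fewer genes in the “Clinical Phase”. That mean rests on H2, which had 560 more, and without H2 it was -134 genes. The median of log2(CPM + 4), computed from CPM (counts scaled to a fixed library total) with TMM normalization, was 4.23 ± 0.02 (SD, n = 5) in the “Remission Phase” and 4.19 ± 0.02 (SD, n = 5) in the “Clinical Phase”. It was lower in the “Clinical Phase” in all 5 horses, by a mean difference of -0.043, with 2 of 32 exchanges as large, the fewest the design allows (exact permutation test). The 10 most abundant genes took 12.7% ± 0.558 (SD, n = 5) of the counts in the “Remission Phase” and 12.3% ± 0.682 (SD, n = 5) in the “Clinical Phase” (exact permutation p = 0.125).

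One library stood apart from the others of its phase. On the first principal component of log2(CPM + 4), which held 46.0% of the variance, the “Remission Phase” libraries lay between -23.2 and -8.05. The “Clinical Phase” libraries of H1, H2, H4 and H7 lay at 20.3, 36.5, 9.06 and 21.5. The “Clinical Phase” library of H6 lay at -10.9, inside the range of the “Remission Phase”. This horse had totals of 25536799 and 14493071, and its later library was the shallowest of the 10. Horse H6 was singled out after its values were seen, and the main counts of genes are given with and without it. Whether depth had a part in its position was not tested.

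The pairing of libraries was less clear for H2 and H6 than for the other horses. As deviations from the phase means, the libraries of H1, H4 and H7 each correlated best, across genes, with the other library of the same horse, at 0.347, 0.457 and 0.358. The “Remission Phase” library of H2 correlated best with the “Clinical Phase” library of H6 (0.195, against -0.120 with its own), and that of H6 best with the later library of H2 (0.190, against 0.00194 with its own). The horse codes were kept as labelled, and whether a label is at fault was not tested. Within-horse changes of H2 and H6 rest on these codes, while the position of the H6 library among the phases does not.

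**Figure D1:**
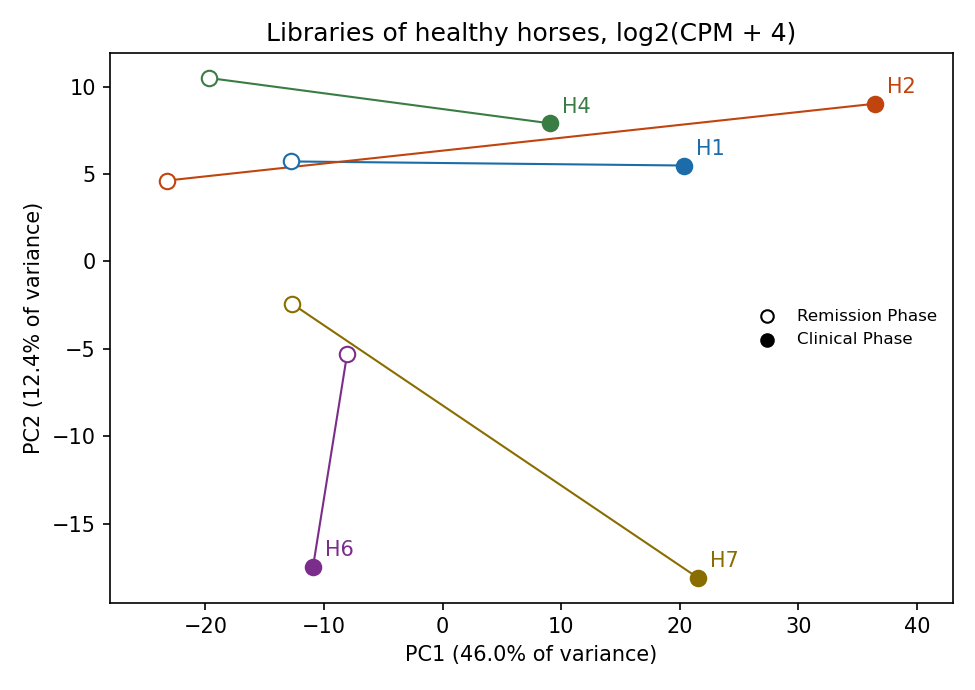
First 2 principal components of log2(CPM + 4) in the 10 libraries of healthy horses, with a line joining the libraries of each horse. Open circles are the “Remission Phase” and filled circles the “Clinical Phase”; 4 horses move to the right, while the filled circle of H6, at -10.9 on the horizontal axis, lies within the range of the open ones on that axis.

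Of the sum of squares over all tested genes, 31.7% lay between phases, 39.1% between horses and 29.3% in neither. The split by horse has more levels than that by phase, so these shares are not ranked against each other. Among the 32 ways to exchange phases within horses, a share between phases as large came from 4 (p = 0.125, exact permutation test, one-sided), and the median share over these arrangements was 10.1%. Without H6 the share between phases was 47.0%.

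At the level of genes, many were called between the phases. The largest fitted changes among the calls were rises, in part of genes under the level of the filter in the “Remission Phase”. The test was edgeR's quasi-likelihood test with horse as a term, TMM normalization and Benjamini-Hochberg adjustment over the genes that reached 0.5 CPM in 1 library or more, and an adjusted p under 0.05 counts as a call. Of 12918 genes tested, 552 were called, or 4.27%, with 290 higher in the “Clinical Phase” (2.24%) and 262 lower (2.03%). Before adjustment, 3051 genes had a p under 0.05. DESeq2 called 1441 genes on the same counts, 779 higher and 662 lower. Of the edgeR calls, 52.5% were rises, whereas scaling by total counts alone gave 218 rises and 349 falls, with rises at 38.4% of the calls. With all libraries thinned to the lowest total, the median over 5 draws was 599 calls, 323 higher and 270 lower, each taken as its own median. Without horse as a term, a fit that uses no pairing, edgeR called 802 genes, 467 higher and 335 lower. The number of calls depended on single horses: edgeR called 4 genes without H1, 137 without H2, 12 without H4 and 1766 without H6. Without H7 the count was 0, although 2252 genes had an unadjusted p under 0.05, and the lowest adjusted p was 0.0954, so that every gene lost its call. The corresponding counts by DESeq2 were 688, 745, 748, 2244 and 688.

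Called rises had a median log2 change of 0.96 and called falls of -0.76, while the median over all tested genes was -0.0025. A log2 change of at least 1 was reached by 137 called rises, and 62 called falls went as far down. At a log2 change of 2 the numbers were 65 and 2, and at 3 they were 30 and 0. Of all called rises, 22 had a “Remission Phase” mean under 0.5 CPM, the level of the filter, so that these entered the test through their “Clinical Phase” libraries or single earlier ones, while 0 called falls had a “Clinical Phase” mean under it. The counts at a log2 change of 2 and 3 were not taken without such genes, so they are a description and no test of rises against falls. Without H6 the numbers were 407 and 206 at a log2 change of 1, 189 and 13 at 2, and 102 and 1 at 3. By edgeR's glmTreat, which asks whether a change exceeds a fold of 1.5, 4 rises and 0 falls were called. The 552 genes were also all called without H6, each in the same direction, and that fit called 893 of 12709 genes higher (7.03%) and 873 lower (6.87%).

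Rises and falls did not follow abundance in the same way. Among the 2261 genes with a mean under 1 CPM, 7 rises and 0 falls were called, and among the 3306 genes from 1 to 10 CPM, 66 rises and 60 falls. Between 10 and 100 CPM there were 142 rises and 176 falls among 5658 genes. At 100 CPM and over there were 75 rises and 26 falls among 1693 genes. The median log2 change of rises declined over these classes from 6.09 through 2.12 and 0.84 to 0.66, and the first of these medians rests on 7 genes. The SD of log2 changes over all tested genes declined as well, from 1.76 through 0.74 and 0.39 to 0.34. The decline is therefore not particular to the called rises. In falls it was -1.19, -0.68 and -0.47 in the 3 classes that held any. Without H6 the 4 classes held 43, 185, 401 and 264 rises and 2, 223, 576 and 72 falls, with median log2 changes from 5.01 to 0.54 in rises and from -2.77 to -0.45 in falls, of which the -2.77 rests on 2 genes. Of the rises over all 5 horses, 2 had no count in any “Remission Phase” library, so that their fitted change depends on the test's handling of zeros.

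**Figure D2:**
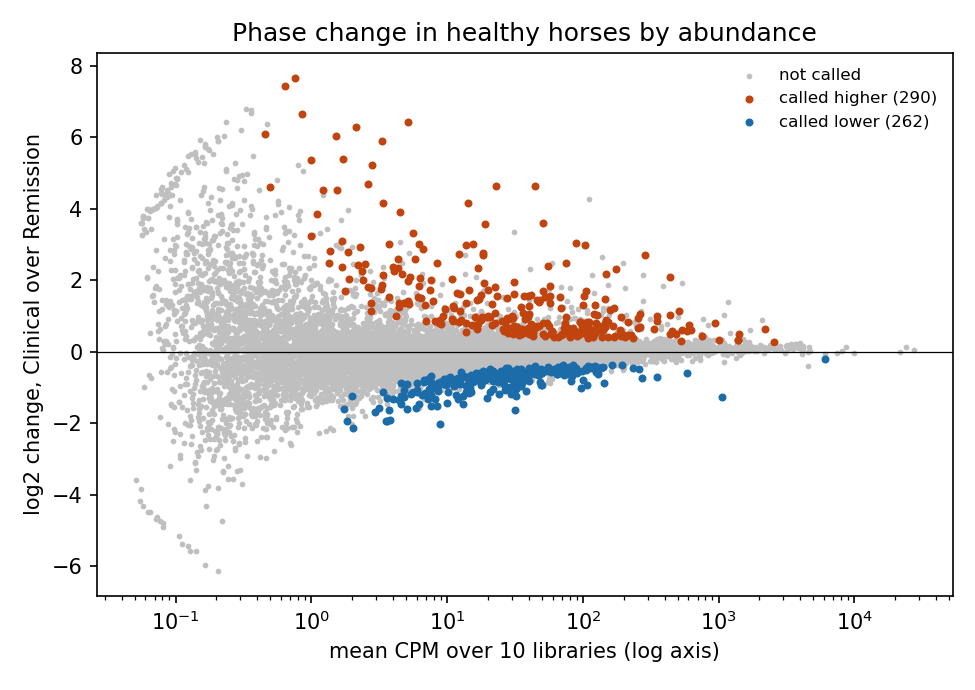
Log2 change, “Clinical Phase” over “Remission Phase”, against the mean CPM over 10 libraries on a log axis, for each of 12918 genes. Called rises (290, orange) extend past a log2 change of 3 in 30 genes, while called falls (262, blue) reach a log2 change of -2 in 2.

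The called genes made up a small part of the RNA counted. The 290 called rises held 2.54% ± 0.140 (SD, n = 5) of the counts in the “Remission Phase” and 3.94% ± 0.495 (SD, n = 5) in the “Clinical Phase”. For the 262 called falls these shares were 2.13% ± 0.205 (SD, n = 5) and 1.43% ± 0.234 (SD, n = 5). These shares come from the contrast that chose the genes and are given as a description. In sorted cells sequenced in bulk, fewer cells of a type and less RNA per cell cannot be told apart.

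Of the 290 called rises, 234 were higher in all 5 horses and 56 in 4 of them. Over all tested genes, 9.12% were higher in all 5 horses and 10.3% were lower in all 5. Of the 262 called falls, 244 were lower in all 5 horses and 18 in 4. The phases did not overlap, with every library of one above every library of the other, in 159 of the called rises and 182 of the called falls. Over all tested genes the groups did not overlap in 2.90% for rises and 3.74% for falls. Without H6, 871 of 893 rises and 865 of 873 falls had 1 direction in all 4 horses, against 18.4% and 19.2% of all tested genes. The phases of these 4 horses did not overlap in 724 rises and 719 falls, against 9.64% and 10.4% of all tested genes.

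The horses took unequal parts in these changes. For the 65 called rises with a log2 change of at least 2, the median within-horse change, on the scale of log2(CPM + 0.5), was 2.34 in H1, 3.60 in H2, 2.39 in H4, 0.15 in H6 and 2.10 in H7. H6 had the lowest change of the 5 horses in 55 of these 65 genes, or 84.6%, against 25.3% over all tested genes. H2 had the highest in 51 of them, or 78.5%, against 27.4% over all tested genes. In the other 225 called rises the medians were 0.70, 1.17, 0.67, 0.30 and 0.91 in the same order of horses. For the called falls they were -0.70, -0.97, -0.64, -0.35 and -0.87. The change in H6 was thus the smallest in each of these 3 classes of genes, and that in H2 the greatest, with the libraries paired as labelled. All 5 horses were in the fit that chose these genes, so H2 had a part in choosing them and its rank is a description. Its “Remission Phase” library had the fewest genes detected of that phase, 12934, and the part of this in its changes was not tested.

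**Figure D3:**
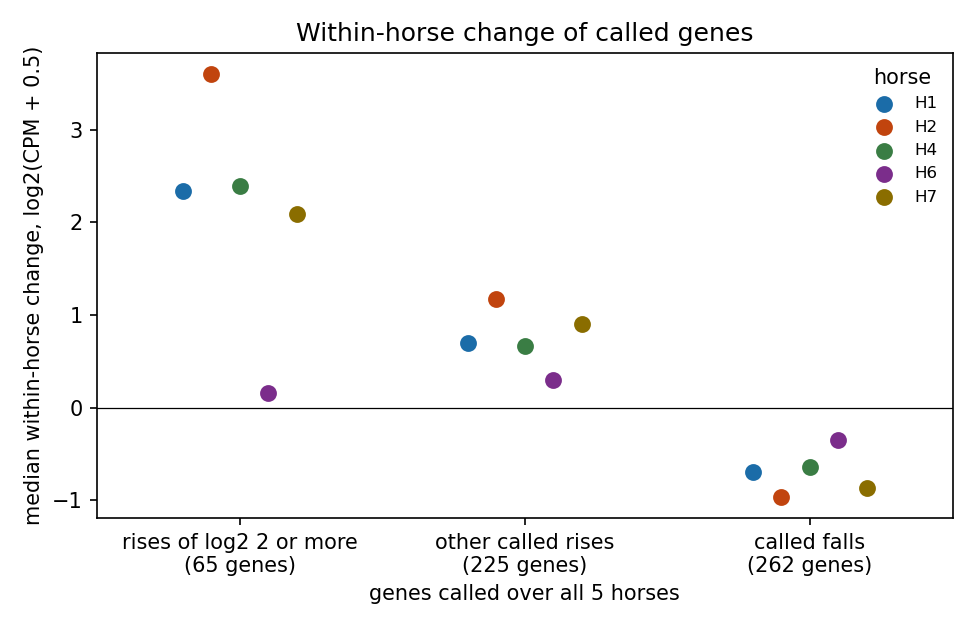
Median within-horse change on the scale of log2(CPM + 0.5), 1 point per horse, for called rises of a log2 change of at least 2 (65 genes), the other called rises (225) and called falls (262). H6 lies closest to 0 in each class, at 0.15, 0.30 and -0.35.

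Since these genes were called with H6 among the horses, the change in H6 was also read in genes called from the other 4 horses alone. Of the 893 genes called higher there, 435 were higher in H6, or 48.7%, where 47.8% of all tested genes were higher in that horse. Of the 873 genes called lower, 495 were lower in H6, or 56.7%, where 50.1% of all genes were. The median within-horse change of the 893 genes was 0.00 in H6, and the median of the mean over the other 4 horses was 0.88. In the 873 genes it was -0.060 in H6 and -0.68 over the others. The same reading in H2, from calls made without H2, gave 85 of 85 rises and 46 of 52 falls in the same direction, where 49.6% of all genes were higher and 48.9% lower in H2. The median change of these rises was 1.61 in H2, against 1.10 over the other 4 horses. For these falls it was -0.90 in H2, against -0.82 over the others. Calls made without H1 or without H4 were 4 and 12 genes, all of which moved the same way in the horse left out, where 49.8% of all genes were higher in H1 and 48.8% in H4, and without H7 there were 0 calls to read.

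The allergic horses gave a separate reading of the same phases, in libraries that had no part in the calls above. They were sampled in the same seasons, and in every allergic horse but A6 the total was lower in the “Clinical Phase”. Allergic libraries were not thinned, so the part of depth in what the groups share was not tested. Per the study, the allergic mares were older by their median age, and a gelding was among the allergic horses. Among the 13174 genes tested in their 14 libraries, edgeR called 177 higher in the “Clinical Phase” (1.34%) and 44 lower (0.334%). All 552 genes called in healthy horses were tested there. Of the 290 rises, 283 had a positive log2 change in allergic horses, and of the 262 falls, 254 had a negative one. Over the 12495 genes tested in both groups, 68.3% had the same direction. The median change in allergic horses was 0.98 for the rises and -0.50 for the falls, against 0.96 and -0.76 in healthy horses and -0.013 over all genes in allergic horses. For the genes called without H6, 822 of 891 rises and 814 of 873 falls had the same direction in allergic horses, against 67.7% of all genes tested in both, with medians there of 0.79 and -0.42.

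Genes called in both groups in the same direction numbered 121, which is 21.9% of the calls in healthy horses and 54.8% of those in allergic horses, and 0 genes were called in opposite directions at an adjusted p under 0.05 by edgeR. Without H6, 194 genes were called in both groups in the same direction, which is 10.99% of the 1766 calls in healthy horses and 87.8% of those in allergic horses. All 221 genes called in allergic horses had the same direction in healthy horses, and 220 of them without H6. Of the rises in healthy horses, 185 of 290 were higher in each of the 7 allergic horses, against 6.72% of all genes tested in both groups. Of the falls, 99 of 262 were lower in each, against 5.28%. For genes called without H6 these counts were 416 of 891 and 251 of 873. Across the 12495 genes, which are not independent replicates, the log2 changes of the groups had a Pearson r of 0.612 and a Spearman rho of 0.545.

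**Figure D4:**
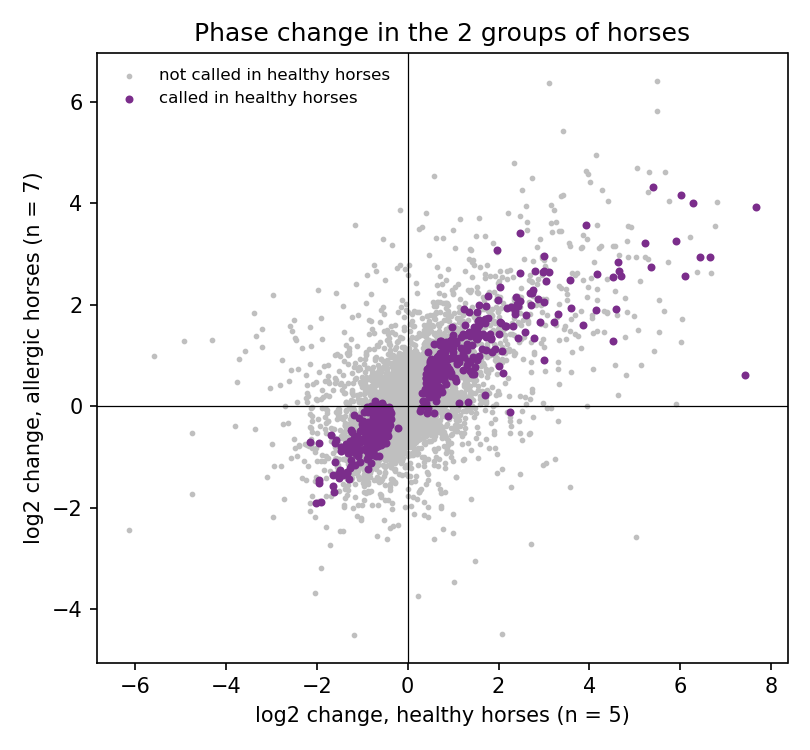
Log2 change, “Clinical Phase” over “Remission Phase”, in healthy horses (horizontal, n = 5) and allergic horses (vertical, n = 7), 1 point per gene tested in both groups. Of the genes called in healthy horses (purple), 283 of 290 rises and 254 of 262 falls lie in the quadrant of the same direction.

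One allergic library also stood apart. That of A6 from the “Remission Phase” had counts on 11802 genes and a TMM factor of 0.747, while the other 13 allergic libraries had 12624 to 13902 genes and factors from 0.935 to 1.09. Without A6, 934 of 12977 genes were called in allergic horses (7.20%), and 546 of the 552 genes called in healthy horses had the same direction there, against 70.6% of all genes. Read in each horse alone, the share of the 552 genes with that direction ranged from 76.4% in A5 to 95.7% in A2, where over all genes it was 54.7% and 65.8%. With 5 of the 7 allergic horses, to match the number of healthy horses, the 21 possible choices gave 0 to 925 calls by edgeR, with a median of 8. The 6 choices without A6 gave 390 to 925 calls and the 15 choices with it 0 to 76. The count of calls in a group of 5 horses thus moved with single animals in allergic horses as well, and the counts of the 2 groups are no measure of a difference between them.

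Whether the phase change itself differed between healthy and allergic horses was tested with all 24 libraries and horse as a term. The edgeR test called 0 of 13597 genes for this difference, or 0%. The lowest adjusted p was 0.954, and 441 genes had an unadjusted p under 0.05. With DESeq2 the call count was also 0, and 606 genes had an unadjusted p under 0.05. Leaving out H6 gave 0 calls among 13486 genes by edgeR, where 651 had an unadjusted p under 0.05, and 2 calls by DESeq2. Of the 552 genes called in healthy horses, 39 had an unadjusted edgeR p under 0.05 for the difference, against 3.24% of all genes tested for it. The healthy libraries that chose the 552 genes also enter that test, so nothing is read from this count. A count of 0 does not show that the groups changed alike.

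The direction found in allergic horses was then read in each healthy horse, as the mean log2(CPM + 4) of the 177 genes that rose in allergic horses minus that of the 44 that fell. This difference increased from the “Remission Phase” to the “Clinical Phase” by 1.74 in H1, 2.63 in H2, 1.31 in H4, 0.27 in H6 and 1.72 in H7. With the libraries paired as labelled, H6 thus had the smallest and H2 the largest increase in genes chosen without any healthy library. H6 started highest, at 0.23 in the “Remission Phase”, where the other 4 healthy horses lay between -0.60 and -0.083. In the reverse reading, with genes called in healthy horses, the increase in allergic horses ranged from 0.44 in A5 to 1.499 in A2, with A6 above them at 2.43. A6 had the lowest value in the “Remission Phase”, -0.35, close to A7 at -0.29, and the highest in the “Clinical Phase”, 2.08, where the other 6 allergic horses lay between 0.74 and 1.53. The order of horses is a description, and its cause was not tested.

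Genes are listed by Ensembl identifier in the deposited files, without symbols. A gene the study names was identified by its values in the comparison of allergic with healthy horses, and is called the CCR10-matched gene, for example. Such a match is no annotation. The study named these genes for a difference between allergic and healthy horses within one or both phases, so the levels of the healthy libraries in those phases had a part in the choice. Adjusted p and calls of all matched genes are therefore given as a description, and nothing is read from them. Levels of single genes are given in CPM of total counts.

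CCR10 encodes a chemokine receptor known for guiding lymphocytes to skin and mucosa. The CCR10-matched gene, listed as ENSECAG00000038719, had 0.203 CPM in H1 and 0.408 CPM in H7 in the “Remission Phase”, and 0 counts in H2, H4 and H6, which allows up to 0.138, 0.0978 and 0.117 CPM by counting error alone. In the “Clinical Phase” it had 1.44 CPM in H1, 1.27 in H2, 0.680 in H4, 1.31 in H6 and 0.545 in H7. Every “Clinical Phase” library lay above every “Remission Phase” library, with means of 1.05 ± 0.406 and 0.122 ± 0.182 CPM (SD, n = 5), and H7 rose least. The difference was 0.927 CPM and the fitted log2 change 3.91 (standard error 1.21). The study named CCR10 partly for its levels in healthy horses in the 2 phases, and the gene reached 0.5 CPM only in “Clinical Phase” libraries. These values are therefore a description, and nothing is read from a test of the change. The gene is not among the 552 called genes, while DESeq2, limma voom with quality weights and edgeR without a filter on low counts called it. Counts were few, with a sum of 22 over the “Remission Phase” libraries and of 97 over the later ones. In H6, whose called genes moved little, this gene went from 0 to 19 counts.

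ND5 is a subunit of respiratory complex I encoded by the mitochondrial genome. The ND5-matched gene, ENSECAG00000027694, had 281, 244, 105, 326 and 248 CPM in H1, H2, H4, H6 and H7 in the “Remission Phase”, and 406, 500, 201, 743 and 445 CPM in the same order in the “Clinical Phase”. It was higher in the “Clinical Phase” in all 5 horses, and the phases overlapped because H4 was low in both. The mean went from 241 ± 82.9 to 459 ± 195 CPM (SD, n = 5), a log2 change of 0.99 (standard error 0.093, edgeR adjusted p = 0.00704). The increase in H6 was the greatest of the 5 horses in CPM, from the highest level in the “Remission Phase”. In the classes of called genes H6 had the smallest median change, but those medians are TMM-normalized log2 changes. The readings are on unlike scales and are not set against each other. The call was lost without H7 (edgeR adjusted p = 0.0954) and without horse as a term (0.0702), with a range from 7.11e-19 to 0.0954 over all settings of edgeR, DESeq2 and limma, while its log2 change stayed between 0.91 and 1.08. In allergic horses the log2 change was 1.29 (standard error 0.17, edgeR adjusted p = 0.0145), higher in 7 of 7 horses.

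The KEF40-matched gene, ENSECAG00000027676, is counted by the study among the mitochondrial genes. It had 319, 418, 175, 311 and 356 CPM in H1, H2, H4, H6 and H7 in the “Remission Phase” and 916, 411, 298, 1047 and 809 CPM in the “Clinical Phase”. It was higher in 4 of 5 horses, while H2 had nearly the same level in both phases, and the phases overlapped. The log2 change was 1.13 (standard error 0.20, edgeR adjusted p = 0.0240). The study named KEF40 for its levels in the “Clinical Phase”, where the healthy libraries tested here had a part in the choice. Nothing is therefore read from the call, which is given as a description. The call was lost without H1 (edgeR adjusted p = 0.111), H4 (0.0863) or H7 (0.131) and in the fit of all 24 libraries (0.173), with a range from 0.000842 to 0.173 over all settings of edgeR, DESeq2 and limma, while its log2 change stayed between 0.98 and 1.38. In allergic horses its log2 change was 0.061 (standard error 0.38, edgeR adjusted p = 0.949), higher in 5 of 7 horses. The fitted difference between healthy and allergic horses was 1.07 (standard error 0.52). The libraries that chose the gene enter this difference, so no test of it is given.

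ATP6, a subunit of the mitochondrial ATP synthase, is also encoded in the mitochondrial genome. The ATP6-matched gene, ENSECAG00000027671, had 1853, 1760, 526, 1653 and 1315 CPM in H1, H2, H4, H6 and H7 in the “Remission Phase” and 1220, 1316, 458, 1986 and 1885 CPM in the “Clinical Phase”. H4 was far below the other horses in both phases, and 2 of 5 horses were higher in the “Clinical Phase”. By edgeR its log2 change was -0.0060 (standard error 0.14, adjusted p = 0.985), a value whose sign turned with the scaling, between -0.088 with total counts only and 0.0084 with RLE factors.

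The other 3 genes named by the study were not called between phases in healthy horses. F13A1 encodes the A chain of coagulation factor XIII, which cross-links fibrin. The F13A1-matched gene, ENSECAG00000008295, had 2.49, 1.60, 1.53, 1.17 and 1.03 CPM in H1, H2, H4, H6 and H7 in the “Remission Phase” and 2.49, 1.92, 2.35, 1.31 and 1.39 CPM in the “Clinical Phase”. The ranges overlapped, and the log2 change was 0.37 (standard error 0.34, edgeR adjusted p = 0.543).

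C1R encodes a protease of the first component of complement. The C1R-matched gene, ENSECAG00000021429, had 1.01, 0.825, 0.261, 0.783 and 0.707 CPM in the “Remission Phase” in the same order of horses, and 2.29, 0.829, 1.36, 0.414 and 2.00 CPM in the “Clinical Phase”. It was higher in 4 of 5 horses, with H6 lower, and the log2 change was 0.95 (standard error 0.59, edgeR adjusted p = 0.367). IGF2BP3 encodes an RNA-binding protein. The IGF2BP3-matched gene, ENSECAG00000016797, had 0.666, 0.871, 0.782, 0 and 1.77 CPM in the “Remission Phase” and 1.79, 0, 0.309, 0 and 1.88 CPM in the “Clinical Phase”. It had 0 counts in H6 in both phases, which allows up to 0.117 and 0.207 CPM, and in H2 in the later one, which allows up to 0.131 CPM. The mean difference was -0.022 CPM, with 2 of 5 horses higher in the “Clinical Phase”. By edgeR the log2 change was -0.59 (standard error 1.02, adjusted p = 0.776), whose sign turned with limma voom, without the horse term and without H2.

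A pair of unnamed genes in each direction was picked for small adjusted p among calls with the same direction in all 5 horses and no overlap, so that their direction and separation are part of the choice. ENSECAG00000000354 had 3.39, 0.917, 3.72, 2.74 and 6.06 CPM in H1, H2, H4, H6 and H7 in the “Remission Phase” and 17.8, 19.0, 26.2, 10.2 and 28.0 CPM in the “Clinical Phase”. H6 had the lowest of the later values. Its log2 change was 2.74 (standard error 0.31, edgeR adjusted p = 0.00900). ENSECAG00000013124 had 34.9, 38.6, 30.2, 41.9 and 28.4 CPM and then 116, 139, 57.6, 80.2 and 95.8 CPM. H4 had the lowest of its later values, and its log2 change was 1.53 (standard error 0.17, with the same edgeR adjusted p). Both calls were lost without H1 (edgeR adjusted p = 0.0750 and 0.0798) and without H7 (0.0954 for each), with ranges from 5.01e-19 and 1.74e-17 to 0.0954 over all settings. Their log2 changes stayed between 2.41 and 2.94 and between 1.41 and 1.69 in those settings. In allergic horses, which had no part in the choice, both were higher in 7 of 7 horses, with log2 changes of 2.23 and 1.32 (edgeR adjusted p = 0.00299 and 0.0209).

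Among falls, ENSECAG00000017048 had 132, 148, 171, 108 and 102 CPM in H1, H2, H4, H6 and H7 in the “Remission Phase” and 83.0, 61.8, 78.8, 50.6 and 40.9 CPM in the “Clinical Phase”. The horses with the lowest levels in the first phase, H6 and H7, also had the lowest in the second. Its log2 change was -1.01 (standard error 0.11, edgeR adjusted p = 0.00900). ENSECAG00000024249 had 14.01, 18.3, 17.1, 9.87 and 15.6 CPM and then 4.08, 4.49, 5.94, 5.59 and 5.94 CPM. H6 started lowest and fell least, and the log2 change was -1.43 (standard error 0.18, edgeR adjusted p = 0.0113). Without H7 both calls were lost (edgeR adjusted p = 0.0954 for each), and the second was also lost without H1 (0.0798) and H4 (0.0721), with ranges from 1.52e-13 and 4.48e-08 to 0.0954 over all settings. Their log2 changes stayed between -1.12 and -0.94 and between -1.56 and -1.31 in those settings. In allergic horses the log2 changes were -0.46 (edgeR adjusted p = 0.234, lower in 5 of 7 horses) and -1.36 (edgeR adjusted p = 0.0283, lower in 6 of 7).

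**Figure D5:**
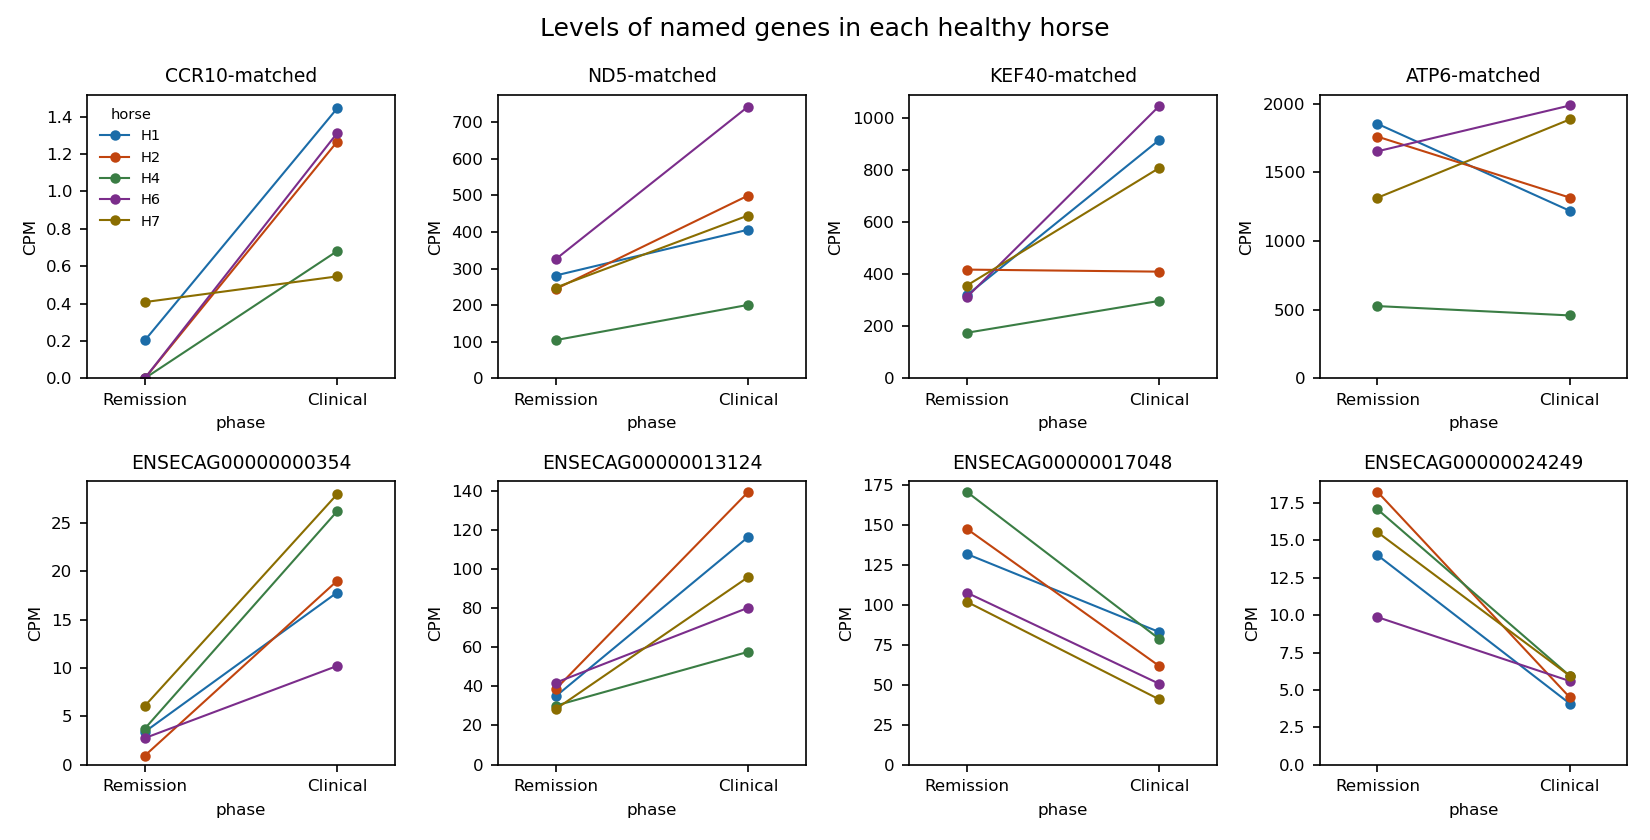
CPM of total counts of 8 genes in each healthy horse, with a line from the “Remission Phase” to the “Clinical Phase” and axes that start at 0. The CCR10-matched gene and the 4 unnamed genes show no overlap between phases, H4 is low throughout in the genes matched to ND5, KEF40 and ATP6, and H6 (purple) reaches the highest later value, 743 CPM, in the ND5-matched gene.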

How the data were processed

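RNA-seq libraries of sorted IgE-binding monocytes were read from the deposited raw counts, 1 file per library and 30371 genes each. Per the labels and methods, the authors trimmed poly-A single-end reads with Trim Galore 0.6.0 and aligned them with STAR 2.7.0e to EquCab3.0. The methods name a directional library kit. Not given in the sources used here: the counting tool, the strand setting of the counting and the annotation release. Overlapping or near-identical genes could therefore share reads. The gene table of the reference, built on another assembly, held 0 of the identifiers, so gene lists and cell type markers were not used here, and no sequence is shown. No libraries were identical (0 pairs).

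Genes reaching 0.5 CPM in 1 library or more were tested with edgeR 4.0.16 (quasi-likelihood, TMM, horse as a term), with DESeq2 1.42.0 and limma 3.58.1 voom as alternatives, in R 4.3.3. An adjusted p under 0.05 was a call. Library values and CPM of single genes used exact permutation tests over 32 exchanges of phase within horses. Scripts were tested on simulated data. Alternatives were RLE factors or total counts, other filters on low counts, quality weights, a fold limit, no horse term, all 24 libraries, a pseudocount of 1, the 1000 most variable genes, thinning (5 draws for calls) and leaving out each horse. Chosen after seeing the data were robust dispersion, the share of called genes with the same direction in allergic horses and its reading without A6. So were the shares of called rises that were lowest or higher in H6, the readings of H6 in genes called without it and the further counts without H6. Leaving out each horse for the calls, the group difference and the sum of squares was planned.

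Libraries pair because they come from the same animals, by their codes. Of the correlations between a horse's libraries, taken as deviations from the phase means, 3 of 5 were the best match, and those of H2 and H6 were not (-0.120 and 0.00194).

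Genes named are those the study names that match only 1 gene by the values of its DESeq2 comparison of allergic and healthy horses, and in each direction the 2 genes of smallest adjusted p, ordered by p, among calls with the same direction in 5 horses and no overlap. Of the genes this rule met, 1 is not reported here and the next took its place. Members and lists were chosen with earlier results of these data known. Floors are 3 counts over the library total and cover counting error only.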

Additional observations from a re-analysis of the deposited data

Results flagged for a closer look

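Among 32 groups of 5 values examined, for library summaries and named genes in each phase, 1 held a sample far from the others, and chance flags about 1 in 20 groups. It was the number of genes detected in the “Remission Phase” library of healthy horse H2, which was 12934, while the other 4 libraries of that phase had 13539 to 13754. That library was also the shallowest of its phase, with 21807434 counts. With all libraries thinned to the same expected total, it had 12796 genes against 13299 to 13392 in the others.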

How the results depend on the processing

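The calls in healthy horses (552, with 290 higher and 262 lower) moved widely when a horse was left out. Their number then ranged from 0 to 1766, with 0 to 893 higher and 0 to 873 lower. DESeq2 called 1441 (779 and 662), limma voom with quality weights 1807 (1012 and 795), and edgeR without a filter on low counts 1096 (574 and 522). The fit of all 24 libraries called 126 (72 and 54), and glmTreat 4 (4 and 0). Without horse as a block edgeR called 802 (467 and 335), of which 482 were among the 552. RLE factors, total counts only, filterByExpr, thinning and robust dispersion gave 533 to 660. All genes shared with the 552 kept their direction in each of these settings where shared genes were counted. Why the tools differ in number was not tested.

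In allergic horses, DESeq2 called 1236 genes against 221 by edgeR, the fit without the block 427, and 5 of 7 horses a median of 8. The test of a difference between the groups gave 0 calls by DESeq2 with all horses and in every edgeR setting, leaving out each healthy horse included, and 2 by DESeq2 without H6. With all horses, 441 (edgeR) and 606 (DESeq2) genes had an unadjusted p under 0.05. Phase held between 27.9% and 47.0% of the sum of squares, and no design here could pass the threshold. Thinning turned the change in detected genes to 4.8, and to -134 without H2.

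Of 154 values of named genes under other settings, 126 kept direction and side of the threshold, 14 lost the call, 3 gained one (all for the CCR10-matched gene, which was named partly for this pattern) and 11 changed sign. Those that changed sign were the IGF2BP3-matched gene with limma voom (0.23), without the block (0.068) and without H2 (range -1.49 to 0.26 with 1 horse left out), and the ATP6-matched gene, near 0 throughout, with DESeq2 (0.0084), RLE factors (0.0084), filterByExpr (1.47e-05), without the block (0.029), with all libraries (0.0038) and without H1, H2 or H4 (range -0.16 to 0.12 with 1 horse left out). The block changed 1 other call, that of the ND5-matched gene (adjusted p = 0.0702 by edgeR without it). Of the 2261 genes under 1 CPM, 0.310% were called, against 5.97% at 100 CPM and over. Whether depth or smaller changes lie behind this was not tested.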
